A study of Mus musculus with 7 samples.

Results

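Intestinal epithelial genes were measured after sorting cells of the embryonic mouse bowel by yellow fluorescent protein (YFP). YFP-positive cells are labelled as neural crest-derived, and YFP-negative cells are the rest. Of 47 measured epithelial genes, 1 passed the test for a difference between the sorted groups (2.13%), against 17.5% of all genes. The lineages leaned in different directions, with median log2 differences of 0.54 for absorptive and -0.82 for goblet cell genes. In the YFP-positive samples 12 of 13 absorptive genes had a higher mean, and 5 of 5 goblet cell genes had a lower one. The size of these leans depended on which YFP-positive arrays were used: without arrays 3 and 4 the medians were 0.07 and -1.47, and without arrays 1 and 2 they were 0.96 and -0.17. Those fits were chosen after the values were seen. The 47 genes come from a list of 48 that was chosen for known roles in the intestinal epithelium, out of 19938 genes measured in all. The goblet cell gene Fcgbp was not analysed here, because its 3 probe sets are shared with other genes.

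All embryos were at embryonic day 17.5 and carried Wnt1-Cre and R26R-EYFP. Wnt1-Cre is a recombinase driven by the Wnt1 gene, which is active in the early neural crest, and R26R-EYFP is a reporter that makes yellow fluorescent protein permanently in a cell in which Cre has acted, and in its descendants. Fluorescence-activated sorting of whole bowel gave 4 YFP-positive samples, labelled as enteric neural crest-derived cells (ENCDC), and 3 YFP-negative samples, labelled as non-ENCDC. The reporter marks where Cre acted, and the groups share genotype, age and tissue and differ in the sort gate. Separate litters or animals are not named in the labels, so each p-value reflects the spread among these particular samples, which may be technical. Precision is limited by the small number of arrays.

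The epithelium of the bowel is a single layer of cells that descends from the endoderm, whereas the neurons and glia of the bowel wall descend from the neural crest. By the end of gestation the epithelium holds absorptive enterocytes, which take up lipid, sugar and peptides, goblet cells, which secrete mucus, and progenitors between the villi. Transcription factors of the Cdx, Hnf4, Foxa, Gata and Klf families set its identity, and simple keratins, claudins and Epcam are shared by its lineages.

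The labels were checked against defining markers. Of 5 enteric neuron markers 5 were higher in YFP-positive cells, and their mean log2 level was 9.85, 9.71, 9.50 and 9.20 in the YFP-positive arrays, against 5.26, 4.97 and 5.51 in the YFP-negative arrays. All 4 glial and neural crest markers were likewise higher. Of 5 myeloid markers 5 were lower, with means of 5.39, 5.67, 6.25 and 6.33 in YFP-positive arrays and 9.16, 9.36 and 9.31 in YFP-negative arrays, and 5 of 5 fibroblast markers were also lower. Of 8 markers of intestinal epithelium, of which 7 are among the genes described here, 0 passed the test in either direction: their mean was 6.86, 7.15, 7.73 and 7.89 in YFP-positive arrays and 7.47, 7.44 and 7.50 in YFP-negative arrays. The YFP-positive samples, labelled as ENCDC, thus held RNA of epithelial genes at levels whose range spans that of the YFP-negative samples. Over all genes the median log2 level of an array lay between 5.87 and 5.92.

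Promoters of absorptive and goblet cell genes are shown because those lineages had the largest differences, in opposite directions. Agr2 and Muc2 were the only measured goblet cell genes with a promoter window, and Muc2 had the smallest difference of that lineage. Each stretch is the 250 bases before the gene's start, 5′ to 3′ on the plus strand, from RefSeq on build GRCm38.p6. Apoa4 lies at chr9:46240594-46240843 and its neighbour Apoa1 at chr9:46228380-46228629, and both encode apolipoproteins of the lipid particles that enterocytes release. Agr2, a protein disulfide isomerase that folds mucin, lies at chr12:35992675-35992924. Muc2, the gel-forming mucin of intestinal mucus, lies at chr7:141690090-141690339. Capitals mark matches to CCACCC, a motif of Klf factors, and to AGATAA, a motif of Gata factors, on either strand.
Apoa4: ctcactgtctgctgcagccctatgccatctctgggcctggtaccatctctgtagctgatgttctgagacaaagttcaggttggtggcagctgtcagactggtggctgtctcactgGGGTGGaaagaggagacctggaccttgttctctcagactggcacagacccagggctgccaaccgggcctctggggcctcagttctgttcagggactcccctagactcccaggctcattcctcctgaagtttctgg
Apoa1: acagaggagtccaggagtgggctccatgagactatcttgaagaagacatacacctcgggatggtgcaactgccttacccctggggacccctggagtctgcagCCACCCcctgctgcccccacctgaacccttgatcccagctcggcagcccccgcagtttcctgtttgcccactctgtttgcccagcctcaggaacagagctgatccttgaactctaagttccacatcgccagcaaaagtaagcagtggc
Agr2: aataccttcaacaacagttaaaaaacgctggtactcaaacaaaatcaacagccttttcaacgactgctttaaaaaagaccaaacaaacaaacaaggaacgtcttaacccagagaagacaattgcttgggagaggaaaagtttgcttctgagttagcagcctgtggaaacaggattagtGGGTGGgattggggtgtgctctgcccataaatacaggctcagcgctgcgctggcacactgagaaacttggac
Muc2: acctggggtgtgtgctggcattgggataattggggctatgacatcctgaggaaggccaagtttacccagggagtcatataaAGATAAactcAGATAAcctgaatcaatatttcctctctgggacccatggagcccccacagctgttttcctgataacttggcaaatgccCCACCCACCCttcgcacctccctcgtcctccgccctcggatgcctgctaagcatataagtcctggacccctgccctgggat

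The Klf motif was in all 4 of these stretches, at 135 bases before the start in Apoa4, 148 in Apoa1 and 72 in Agr2. In Muc2 it occurred at 81 and at 77 bases before the start, as overlapping matches, and the Gata motif occurred at 169 and 159. Of the 47 genes, 35 had a window in the RefSeq table, with 40 windows in all. The Klf motif was in 22 of the 40 windows (55%), against 28.1% of all 32851 windows, and it was in 6 of 12 absorptive and 2 of 2 goblet windows. Those 2 goblet windows are the ones printed above. The Gata motif was in 8 of 40 windows (20%), against 9.99% of all windows. TGTTTAC, a motif of Fox factors, was in 3 windows (7.5%), those of Cdx2, Foxa1 and Tspan8, against 3.17% of all. CAAAGTCCA, a motif of Hnf4 factors, was in 1 window, that of Alpi, against 0.384% of all. TTTATNAC, a motif of Cdx factors in which N is any base, was in 0 of 40 windows and in 3.09% of all. These matches describe letters in a window and are not evidence that a factor binds there. The windows were not matched on base composition.

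Levels are given on the log2 scale of the deposited values for each array in turn, and a difference is the YFP-positive mean minus the YFP-negative mean of those levels. Levels of different genes come from different probes, so they were not compared with each other. A gene was called different at an adjusted p under 0.05 in a limma fit over all genes. Of the 47 epithelial genes 1 was called (2.13%), against 17.5% of all genes. The called gene was lower, so that 0 of 47 were called higher, against 8.39% of all genes, and 1 of 47 was called lower, against 9.11%. At an unadjusted limma p under 0.05, 2 epithelial genes were higher and 6 lower, and 6016 of all 19938 genes passed that threshold. The differences of the epithelial genes ran from -0.89 to 0.87 with a median of -0.03, beside a median of 0.01 over all genes. The sorted groups had separate ranges for 4 epithelial genes (8.51%), all 4 lower in YFP-positive cells, against 26.9% of all genes. The differences were within 1.5-fold for 37 of the 47 (78.7%), against 84.8% of all genes.

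The precision for these genes was lower than for most genes. Their median SD was 0.48 in YFP-positive arrays and 0.21 in YFP-negative arrays, against 0.13 and 0.13 over all genes, and the median standard error of a difference was 0.30, against 0.10. Few calls among genes with such a spread therefore do not show that their levels were equal, and the 95% intervals below give the differences that the arrays allow. In bulk samples, fewer epithelial cells and less RNA per cell cannot be told apart.

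**Figure D1:**
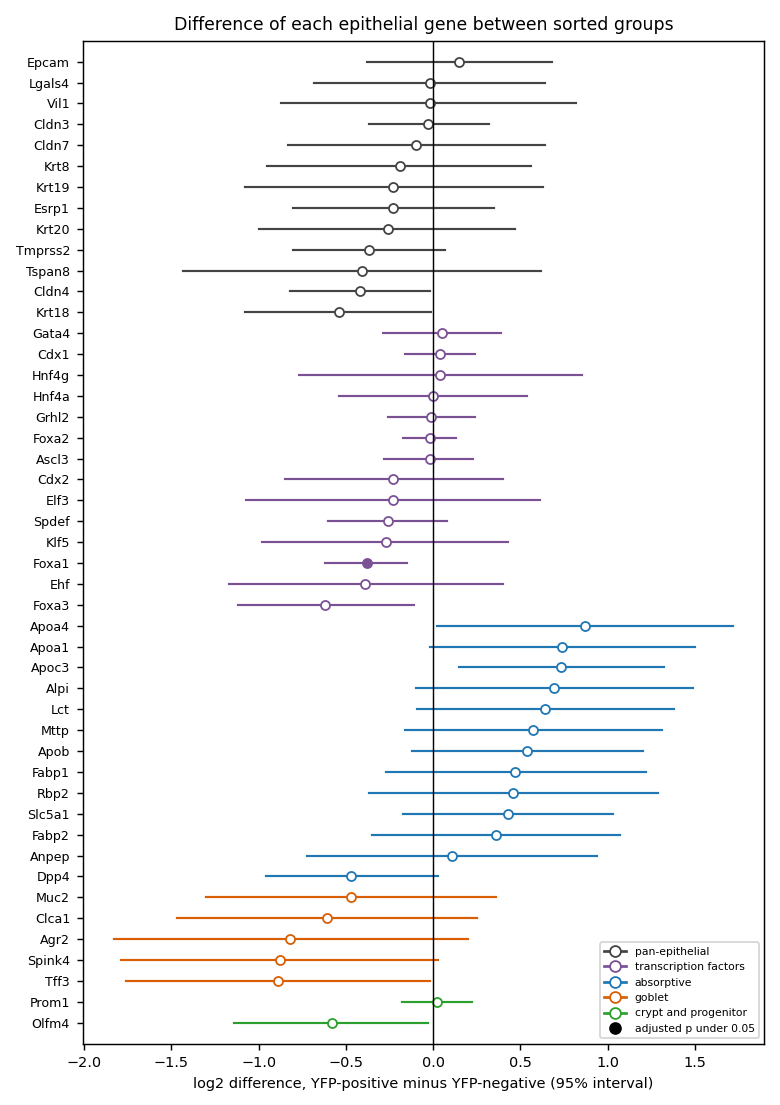
Log2 difference of each epithelial gene, YFP-positive (4 arrays) minus YFP-negative (3 arrays), with its 95% interval from limma, ordered by lineage; a filled point passed an adjusted p of 0.05. Foxa1 has the filled point, absorptive genes other than Dpp4 sit right of 0 and goblet genes left of it.

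Genes shared by epithelial lineages did not pass the test. Of 13 such genes 0 were called, 12 had a negative and 1 a positive difference, the median difference was -0.23, and all 13 were within 1.5-fold. The median was 0.04 without YFP-positive array 1. Epcam, the adhesion molecule commonly used to sort epithelial cells, had log2 levels of 7.69, 7.84, 8.27 and 8.64 in YFP-positive cells, against 8.07, 7.85 and 7.97 in YFP-negative cells. The YFP-positive values lay on both sides of the YFP-negative ones. Its difference was 0.15 ± 0.22 (SE, 95% interval -0.38 to 0.68, limma adjusted p = 0.717).

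The largest differences in this group were those of Krt18, Cldn4, Tspan8 and Tmprss2. Krt18, a simple keratin that pairs with Krt8, had levels of 7.21, 7.68, 8.06 and 8.06 in YFP-positive arrays, against 8.48, 8.35 and 8.06 in YFP-negative arrays. The claudin Cldn4, a tight junction protein, had 6.02, 6.26, 6.57 and 6.57 in YFP-positive arrays and 7.03, 6.72 and 6.58 in YFP-negative arrays. Every YFP-positive value of Cldn4 was below the lowest YFP-negative one, with arrays 3 and 4 just beneath it. The differences were -0.54 ± 0.23 for Krt18 and -0.42 ± 0.17 for Cldn4 (SE), and neither passed (limma adjusted p = 0.157 and 0.146).

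Tspan8, a tetraspanin of epithelial membranes, had levels of 7.48, 8.40, 9.01 and 9.34 in YFP-positive cells, against 8.87, 8.71 and 9.33 in YFP-negative cells. It had the widest spread of this group, with an SD of 0.82 over the 4 YFP-positive arrays, and a difference of -0.41 ± 0.43 (SE, limma adjusted p = 0.589). Tmprss2, a membrane serine protease, had 5.27, 5.76, 5.93 and 5.97 in YFP-positive cells, against 6.02, 6.32 and 5.97 in YFP-negative cells. Its groups touched at 5.97 to 2 decimals without overlapping, and the difference was -0.37 ± 0.18 (SE, limma adjusted p = 0.238).

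At the other end, Vil1 and Lgals4 had differences of -0.02 each. Vil1 encodes villin, which bundles actin in microvilli, and had levels of 6.67, 7.11, 7.85 and 8.17 in YFP-positive cells, against 7.36, 7.33 and 7.73 in YFP-negative cells. Lgals4, a galectin of the gut epithelium, had 9.66, 9.57, 10.43 and 10.66 in YFP-positive and 10.10, 10.03 and 10.18 in YFP-negative cells. In both genes YFP-positive arrays 1 and 2 were below and arrays 3 and 4 above all YFP-negative arrays. The intervals of -0.87 to 0.82 for Vil1 and -0.68 to 0.64 for Lgals4 leave room for differences in either direction. The other 7 genes, the keratins Krt8, Krt19 and Krt20, the claudins Cldn3 and Cldn7, the splicing factor Esrp1 and Epcam above, had differences from -0.26 to 0.15.

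Transcription factors of the epithelium held the single called gene. Foxa1, a forkhead factor that opens chromatin in endoderm, was lower in YFP-positive cells. Its levels were 5.62, 5.56, 5.91 and 5.66 in YFP-positive arrays, against 5.95, 6.12 and 6.13 in YFP-negative arrays, and no YFP-positive array reached the lowest YFP-negative one. The difference was -0.38 ± 0.10 (SE, 95% interval -0.62 to -0.15, limma adjusted p = 0.0395), which is 1.3-fold higher in YFP-negative cells. The call was lost without YFP-positive array 1, 2 or 4 or without any one YFP-negative array (limma adjusted p = 0.0506 to 0.133), and stayed without YFP-positive array 3 (limma adjusted p = 0.0135).

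The related factors Foxa2 and Foxa3 were not called. Foxa2 had 5.47, 5.51, 5.37 and 5.49 in YFP-positive cells, against 5.55, 5.49 and 5.40 in YFP-negative cells, a difference of -0.02 ± 0.06 (SE). Foxa3 had 4.93, 5.18, 5.62 and 5.74 in YFP-positive cells, against 6.15, 6.06 and 5.74 in YFP-negative cells. Its difference was the largest among the factors at -0.62 ± 0.21 (SE, limma adjusted p = 0.0979). Whether the Foxa genes differ from each other was not tested.

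The Cdx genes are homeobox factors that specify intestinal identity. Cdx1 had levels of 6.22, 6.17, 6.22 and 6.36 in YFP-positive cells, against 6.15, 6.36 and 6.11 in YFP-negative cells. Cdx2 had 5.63, 6.09, 6.55 and 6.73 in YFP-positive cells, against 6.40, 6.32 and 6.71 in YFP-negative cells. The differences were 0.04 ± 0.08 for Cdx1 and -0.23 ± 0.26 for Cdx2 (SE), with overlapping groups in both.

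The nuclear receptors Hnf4a and Hnf4g, which drive enterocyte genes, were level on average. Hnf4a had 6.66, 7.04, 7.37 and 7.60 in YFP-positive cells, against 7.07, 7.04 and 7.40 in YFP-negative cells. Hnf4g had 6.16, 6.94, 7.28 and 7.66 in YFP-positive cells, against 6.88, 6.73 and 7.29 in YFP-negative cells. For each gene the lowest and the highest of the 7 values were both in YFP-positive cells. The differences were 0.00 ± 0.23 with a 95% interval of -0.54 to 0.54 for Hnf4a and 0.04 ± 0.34 with an interval of -0.77 to 0.85 for Hnf4g.

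Gata4, the zinc finger factor of the proximal intestine, had levels of 6.22, 6.21, 6.62 and 6.66 in YFP-positive cells, against 6.25, 6.34 and 6.54 in YFP-negative cells. Klf5, a Krüppel-like factor of proliferating epithelium, had 6.92, 7.31, 7.88 and 8.20 in YFP-positive cells, against 7.79, 7.72 and 8.05 in YFP-negative cells. The groups overlapped in both, with differences of 0.05 ± 0.14 and -0.27 ± 0.30 (SE).

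Elf3 and Ehf are Ets factors found in epithelia. Elf3 had levels of 5.53, 6.42, 6.67 and 7.21 in YFP-positive cells, against 6.66, 6.66 and 6.74 in YFP-negative cells. Ehf had 6.14, 6.72, 7.41 and 7.53 in YFP-positive cells, against 7.42, 7.19 and 7.40 in YFP-negative cells. YFP-positive array 1 was lowest in both, and the differences were -0.23 ± 0.35 for Elf3 and -0.39 ± 0.33 for Ehf (SE).

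Grhl2, a grainyhead factor that keeps epithelial junctions in place, had levels of 5.05, 5.30, 5.5 and 5.32 in YFP-positive cells, against 5.30, 5.27 and 5.35 in YFP-negative cells. Spdef, which directs goblet and Paneth cell maturation, had 6.09, 6.25, 6.56 and 6.49 in YFP-positive cells, against 6.83, 6.5 and 6.48 in YFP-negative cells. Ascl3, a basic helix-loop-helix factor known from salivary gland progenitors, had 3.78, 3.43, 3.51 and 3.42 in YFP-positive cells, against 3.51, 3.47 and 3.69 in YFP-negative cells. The differences were -0.01 ± 0.11, -0.26 ± 0.14 and -0.02 ± 0.11 (SE), and the deposited values carry no detection call that would tell a low level from background. Over the 14 factors the median difference was -0.12, with 3 positive and 11 negative differences.

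Absorptive genes leaned towards YFP-positive cells without passing the test. Of 13 such genes 0 were called, 12 had a positive difference, the median was 0.54 and 8 were within 1.5-fold. Leaving out YFP-positive array 4 gave a median of 0.35, and leaving out arrays 3 and 4 gave 0.07. The largest differences were those of 3 apolipoproteins and the alkaline phosphatase Alpi. Apoa4 had levels of 9.78, 9.51, 10.62 and 10.52 in YFP-positive cells, against 8.59, 9.49 and 9.62 in YFP-negative cells. Apoa1 had 9.58, 9.42, 10.44 and 10.36 in YFP-positive cells, against 8.72, 9.33 and 9.58 in YFP-negative cells. In both genes YFP-positive arrays 3 and 4 stood above all others, and the groups overlapped through YFP-positive array 2 and YFP-negative array 3. The difference was 0.87 ± 0.36 for Apoa4 (SE, 95% interval 0.02 to 1.72, limma adjusted p = 0.158) and 0.74 ± 0.32 for Apoa1 (SE, 95% interval -0.02 to 1.5, limma adjusted p = 0.179).

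Apoc3, which slows the clearance of triglyceride-rich particles, had levels of 9.0, 8.55, 9.44 and 9.49 in YFP-positive cells, against 8.12, 8.41 and 8.63 in YFP-negative cells. YFP-positive array 2 was the one array of its group below a YFP-negative value. The difference was 0.73 ± 0.25 (SE, 95% interval 0.15 to 1.32, limma adjusted p = 0.0925), and without YFP-positive array 2 it was 0.92 and past the threshold (limma adjusted p = 0.0288). Alpi had 7.46, 7.43, 8.11 and 8.52 in YFP-positive cells, against 6.77, 7.06 and 7.73 in YFP-negative cells, and a difference of 0.69 ± 0.34 (SE, limma adjusted p = 0.226).

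The remaining lipid-handling genes had smaller positive differences. Apob, the structural protein of chylomicrons, and Mttp, which loads lipid onto it, had differences of 0.54 ± 0.28 and 0.57 ± 0.31 (SE). The fatty acid-binding proteins Fabp1 and Fabp2 had 0.47 ± 0.31 and 0.36 ± 0.30, and the retinol-binding protein Rbp2 had 0.46 ± 0.35 (SE of the difference). The sugar genes were similar, with 0.64 ± 0.31 for the lactase Lct and 0.43 ± 0.25 for Slc5a1, the sodium-glucose cotransporter. Fabp2 had levels of 11.25, 10.78, 11.65 and 11.81 in YFP-positive cells, against 10.59, 10.95 and 11.50 in YFP-negative cells. None of these 7 genes passed the test (limma adjusted p = 0.226 to 0.484), and the groups overlapped in each.

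The peptidases of the brush border had the other differences of this lineage. Anpep, aminopeptidase N, had levels of 9.07, 9.10, 9.85 and 10.44 in YFP-positive cells, against 9.32, 9.39 and 9.80 in YFP-negative cells, a difference of 0.11 ± 0.35 (SE). Dpp4, dipeptidyl peptidase 4, had 6.90, 7.10, 7.05 and 7.77 in YFP-positive cells, against 7.85, 7.54 and 7.61 in YFP-negative cells. Its 3 lowest YFP-positive values lay below every YFP-negative value, and array 4 lay among them. The difference was -0.47 ± 0.21 (SE, limma adjusted p = 0.192), and without YFP-positive array 4 it was -0.65 and past the threshold (limma adjusted p = 0.0108). Dpp4 is also made by cells outside the epithelium, such as lymphocytes and fibroblasts.

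Goblet cell genes leaned the other way. Of 5 measured genes 0 were called, all 5 had a negative difference, the median was -0.82 and 1 was within 1.5-fold. Leaving out YFP-positive array 1 gave a median of -0.53, leaving out arrays 3 and 4 gave -1.47, and leaving out arrays 1 and 2 gave -0.17. Tff3, the trefoil peptide secreted with mucus, had levels of 8.78, 8.76, 9.94 and 9.93 in YFP-positive cells, against 10.26, 10.58 and 9.89 in YFP-negative cells. Spink4, a Kazal-type protease inhibitor of goblet cells, had 8.35, 8.54, 9.65 and 9.62 in YFP-positive cells, against 9.92, 10.32 and 9.51 in YFP-negative cells. In both genes YFP-positive arrays 1 and 2 were below all YFP-negative arrays, and arrays 3 and 4 were close to YFP-negative array 3. The difference was -0.89 ± 0.37 for Tff3 (SE, 95% interval -1.76 to -0.02, limma adjusted p = 0.157) and -0.88 ± 0.38 for Spink4 (SE, 95% interval -1.79 to 0.03, limma adjusted p = 0.182).

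Agr2 had levels of 8.71, 9.04, 10.25 and 10.26 in YFP-positive cells, against 10.45, 10.68 and 10.02 in YFP-negative cells. Clca1, a secreted metalloprotease of mucus, had 6.79, 7.57, 7.71 and 8.40 in YFP-positive cells, against 8.26, 8.57 and 7.85 in YFP-negative cells. Muc2 had 6.63, 6.55, 7.84 and 7.58 in YFP-positive cells, against 7.47, 7.95 and 7.42 in YFP-negative cells. The groups overlapped in all 3 genes, and YFP-negative array 2 held the highest value of each. The differences were -0.82 ± 0.43, -0.61 ± 0.36 and -0.47 ± 0.35 (SE, limma adjusted p = 0.263, 0.325 and 0.437).

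Of the crypt and progenitor genes, Olfm4, a secreted glycoprotein of intestinal stem cells, had levels of 7.21, 6.67, 7.50 and 7.46 in YFP-positive cells, against 7.62, 7.60 and 8.15 in YFP-negative cells. The groups did not overlap, and the difference was -0.58 ± 0.23 (SE, 95% interval -1.14 to -0.03, limma adjusted p = 0.147). Prom1, a membrane protein of progenitors and of other epithelial cells, had 5.65, 5.69, 5.76 and 5.97 in YFP-positive cells, against 5.77, 5.72 and 5.76 in YFP-negative cells. Its difference was 0.02 ± 0.08 (SE).

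**Figure D2:**
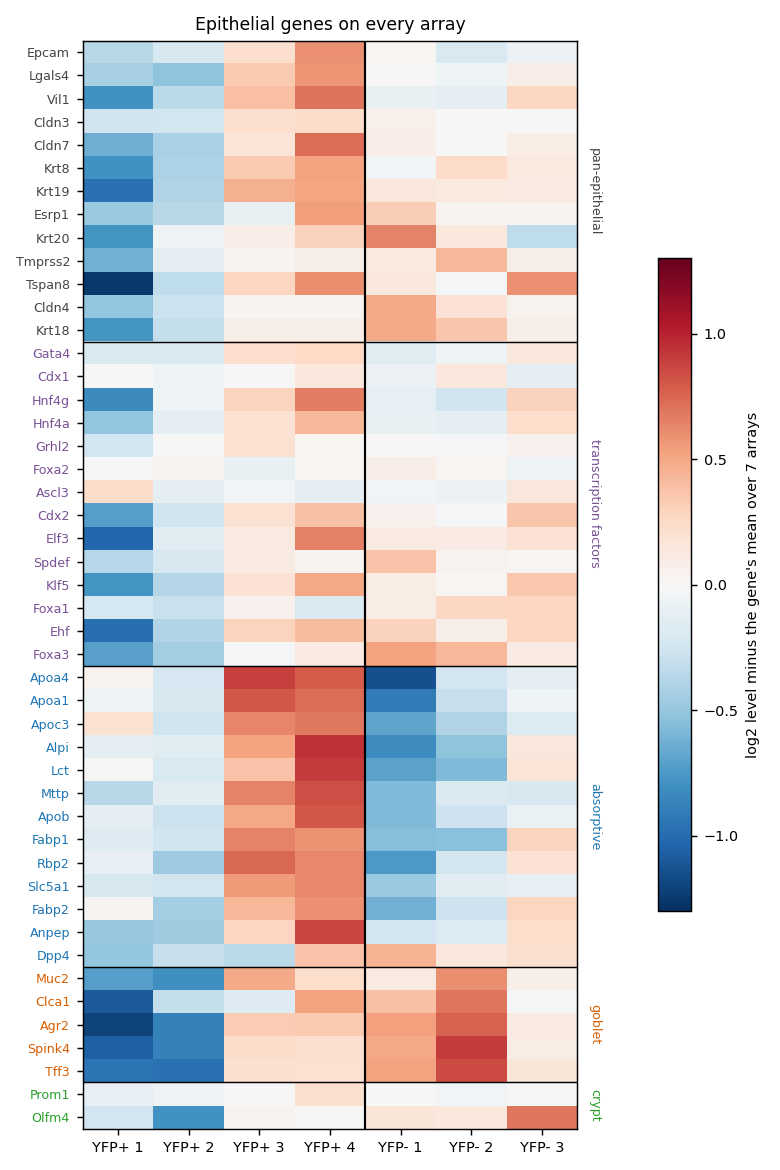
Log2 level of each epithelial gene (rows, by lineage) on each of 4 YFP-positive and 3 YFP-negative arrays (columns), minus the gene's mean over the 7 arrays; red is above and blue below that mean. YFP-positive arrays 1 and 2 are mostly blue and arrays 3 and 4 mostly red, and the YFP-negative arrays are closer to the mean.

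Epithelial gene levels varied widely among the YFP-positive arrays. For 43 of the 47 (91.5%), YFP-positive arrays 3 and 4 were both above arrays 1 and 2, against 17% of all genes. The exceptions were Cdx1, Foxa2, Ascl3 and Dpp4. Among the YFP-positive arrays, array 1 held the lowest value of 28 genes and array 2 of 17, and array 4 held the highest value of 32 and array 3 of 13. Over all 7 arrays, YFP-positive array 1 was lowest for 27 genes and YFP-positive array 4 highest for 26. The mean level of the 47 genes was 7.04, 7.20, 7.77 and 7.94 in the YFP-positive arrays, against 7.48, 7.55 and 7.63 in the YFP-negative arrays. The labels name no difference among the 4 YFP-positive samples.

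Mean levels of smooth muscle, fibroblast and myeloid markers, cell types that do not come from the neural crest, were also higher on YFP-positive arrays 3 and 4. The mean of 3 pancreatic acinar markers went the other way, with 5.54, 5.62, 5.12 and 5.23 in the YFP-positive arrays. Of these markers only Cpa1 was lower on both arrays 3 and 4 (6.89, 7.15, 5.51 and 6.33). Cela1 was lower on array 4 alone (5.66, 5.67, 5.67 and 5.18), and Ptf1a was higher on arrays 3 and 4 (4.06, 4.06, 4.18 and 4.18). The mean of 6 smooth muscle markers was 8.20, 9.04, 9.66 and 10.11 in the YFP-positive arrays, against 10.87, 10.79 and 10.33 in the YFP-negative arrays, and 2 of the 6 were called lower. The mean of 5 fibroblast markers was 7.65, 7.95, 8.47 and 8.77 in the YFP-positive arrays, against 10.36, 10.30 and 9.67 in the YFP-negative arrays. The myeloid means given above had this order too, whereas the neuronal means were lower on arrays 3 and 4. For smooth muscle, fibroblast and myeloid markers the 4 YFP-positive means all lay below the 3 YFP-negative means, whereas for the 47 epithelial genes together the YFP-positive means spanned them. The pan-epithelial and transcription factor lists had such a span too. The absorptive, goblet and crypt means overlapped the YFP-negative means without spanning them. The part of smooth muscle, fibroblasts and myeloid cells in the epithelial values was not tested.

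**Figure D3:**
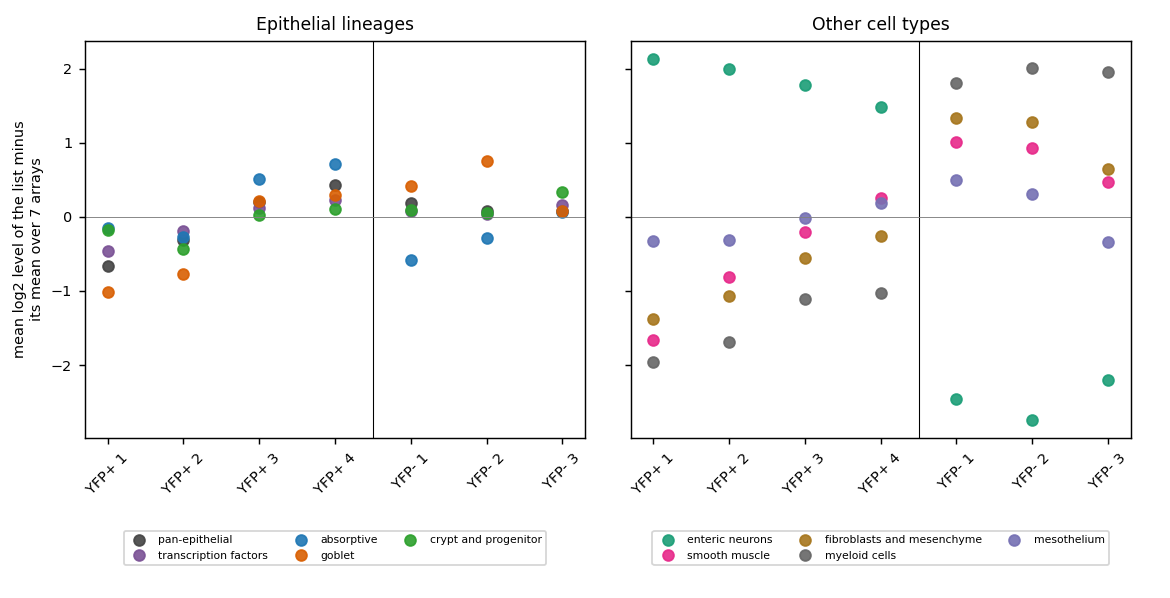
Mean log2 level of each gene list on each array, minus its mean over the 7 arrays, for epithelial lineages (left) and markers of other cell types (right), with the 4 YFP-positive arrays left of the vertical line and the 3 YFP-negative arrays right of it. Epithelial means of the YFP-positive arrays lie on both sides of their average, while neuronal markers are above and myeloid and fibroblast markers below theirs in all 4; smooth muscle markers are below it in YFP-positive arrays 1 to 3 and above it in array 4.

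Tissues that share genes with the intestinal epithelium were examined in the same fit. Hepatocytes also make apolipoproteins and Foxa factors, and of 4 hepatocyte markers 0 were called. Albumin (Alb) was at 3.70, 3.62, 3.73 and 4.31 in YFP-positive and 3.71, 3.49 and 4.91 in YFP-negative cells. Afp was at 6.76, 6.3, 6.76 and 7.5 in YFP-positive and 6.45, 6.76 and 6.99 in YFP-negative cells. Ttr, which other tissues also make, was at 7.65, 7.61, 8.41 and 8.24 in YFP-positive and 7.98, 8.07 and 7.78 in YFP-negative cells. The mean of the hepatocyte list was 5.28 to 5.96 in YFP-positive arrays and 5.45 to 5.85 in YFP-negative arrays. Mesothelium, the outer lining of the bowel, shares the simple keratins. Of its 7 markers 1 was lower, Wt1 (-0.75 ± 0.20 SE, limma adjusted p = 0.0394), and their mean ran from 6.17 to 6.68 in YFP-positive arrays and from 6.15 to 6.99 in YFP-negative arrays. Of 3 pancreatic acinar markers 0 were called. The part of these tissues in the epithelial values was not tested.

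Because total epithelial signal varied between arrays, the lineages were also set against each other within an array, as the mean level of one list minus that of another, centred on the mean of that quantity over the 7 arrays. This description was added after the values were seen and was not tested. Absorptive and goblet genes had already been seen to lean in opposite directions, which fixes the direction of their contrast. Its separation of the groups is therefore no independent support for those leans. Absorptive minus goblet genes gave 0.86, 0.49, 0.29 and 0.42 in the YFP-positive arrays, against -1.0, -1.05 and -0.02 in the YFP-negative arrays. No YFP-positive array reached down to a YFP-negative one, and YFP-negative array 3 lay closest. The means were 0.52 ± 0.25 in YFP-positive arrays and -0.69 ± 0.58 in YFP-negative arrays (SD, n = 4 and 3), a difference of 1.21.

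Set against the pan-epithelial genes, the absorptive genes gave 0.52, 0.03, 0.32 and 0.29 in YFP-positive arrays, against -0.77, -0.37 and -0.02 in YFP-negative arrays. These groups did not overlap, although YFP-positive array 2 and YFP-negative array 3 were near each other. The goblet genes set against the pan-epithelial genes ran from -0.46 to 0.02 in YFP-positive arrays and up to 0.68 in YFP-negative arrays, and the groups overlapped. For the transcription factors set against the pan-epithelial genes the group means differed by 0.04. Apoa4 and Tff3 were picked as the genes with the largest differences of their lineages, which fixes the direction of their contrast: Apoa4 minus Tff3 gave 1.0, 0.75, 0.67 and 0.60 in YFP-positive arrays, against -1.66, -1.09 and -0.26 in YFP-negative arrays.

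**Figure D4:**
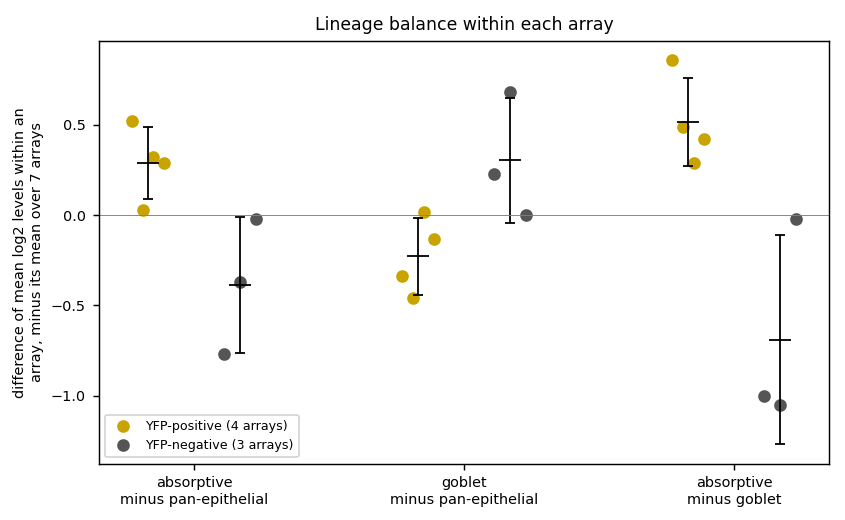
Difference between the mean log2 levels of 2 lineages within each array, minus its mean over the 7 arrays, for YFP-positive (yellow) and YFP-negative (grey) arrays; bars are the mean and SD of 4 and 3 arrays. Absorptive minus goblet is 0.29 to 0.86 in YFP-positive arrays and -1.05 to -0.02 in YFP-negative arrays. The contrasts were chosen after the values were seen.

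Taken relative to the pan-epithelial mean of the same array, 11 of the 47 genes (23.4%) had groups that did not overlap, against 12.5% of all genes on that scale. The 9 that were higher in YFP-positive cells were Epcam and 8 absorptive genes, namely Apoa1, Apoa4, Apob, Apoc3, Mttp, Alpi, Lct and Slc5a1. The 2 that were lower were Foxa3 and Tff3. On this scale the difference was 1.08 for Apoa4, 0.94 for Apoa1 and 0.94 for Apoc3, against -0.69 for Tff3 and -0.41 for Foxa3. This scale adds about 0.21 to the difference of every gene, so that the median over all genes is 0.22 on it, against 0.01 on the measured levels. On the measured levels 0 of these 9 genes had separate groups. The scale uses the pan-epithelial genes themselves, Epcam included, and was not tested. Subtracting their mean takes spread shared by epithelial genes out of their values and adds it to those of unrelated genes. On the measured levels the shares with separate groups were 8.51% of the 47 genes and 26.9% of all genes. A higher share among epithelial genes follows in part from the scale itself, so it is no result about them.

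Other epithelial genes, chosen by role, were read from the same fit. Among 109 measured genes limma called 2 higher (1.83%, against 8.39% of all genes) and 10 lower (9.17%, against 9.11% of all genes), and their median difference was -0.09. Of 14 adhesion and junction genes 0 were called, with 11 positive and 3 negative differences and a median of 0.03. The largest differences there were 0.25 ± 0.23 for Cdhr2 and 0.22 ± 0.12 for Ocln (SE). Cdh1, E-cadherin, had levels of 6.69, 7.50, 8.11 and 8.52 in YFP-positive cells, against 7.95, 7.88 and 7.88 in YFP-negative cells, with a difference of -0.20 ± 0.40 (SE). Of 18 brush border enzymes and transporters 0 were called, with a median of 0.02. The largest difference there was -0.95 ± 0.38 for the aminopeptidase A gene Enpep (SE, limma adjusted p = 0.146), whereas neprilysin (Mme) had 0.65 ± 0.23 and cubilin (Cubn) 0.57 ± 0.30. Of 6 genes of foregut squamous epithelium 0 were called, with differences from -0.12 to 0.04.

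The 12 called genes make up 11% of the 109, against 17.5% of all genes, so the counts per list that follow are no result about those lists. Of 12 enteroendocrine genes 2 were lower and 0 higher, with a median difference of -0.85. Neurog3, the factor that commits cells to the enteroendocrine fate, had levels of 4.80, 4.84, 5.25 and 5.49 in YFP-positive cells, against 6.48, 6.44 and 6.19 in YFP-negative cells, and was lower, with a difference of -1.28 ± 0.18 (SE, limma adjusted p = 0.00349). Gip, an incretin hormone of K cells, had 6.76, 5.5, 6.16 and 7.98 in YFP-positive cells, against 9.43, 9.45 and 8.59 in YFP-negative cells, and was lower, with a difference of -2.55 ± 0.56 (SE, limma adjusted p = 0.021). The groups did not overlap in either gene. Somatostatin (Sst) at -1.91 ± 0.65 and glucagon (Gcg) at -1.42 ± 0.50 did not pass (SE, limma adjusted p = 0.0916 and 0.106). Some of these genes, Sst among them, are also made by neurons.

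In the crypt and stem list 2 of 9 genes were lower, Cd44 at -2.05 ± 0.22 and the matricellular protein Smoc2 at -1.67 ± 0.37 (SE, limma adjusted p = 0.000983 and 0.0207), while Lgr5, the receptor that marks adult intestinal stem cells, had -0.03 ± 0.09. Lgr5 was chosen after its value was seen. Cd44 is also made by leukocytes and fibroblasts, and Smoc2 by mesenchymal cells, and the part of those cells in these values was not tested. Of 6 Paneth cell genes Lyz1 was lower at -1.46 ± 0.33 (SE, limma adjusted p = 0.0235). Its close paralog Lyz2 of macrophages had a difference of -4.37 ± 0.36 (SE). Whether the Lyz1 probes also bind Lyz2 transcripts was not tested. Of 13 goblet secretion genes the transcription factor Creb3l1 was lower at -1.55 ± 0.30 (SE, limma adjusted p = 0.0128), and the list median was -0.19. Of 17 epithelial regulators Maf was lower at -1.51 ± 0.30 (SE, limma adjusted p = 0.0148), a factor also known from macrophages.

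In the tuft cell list Dclk1, a doublecortin-like kinase that is also made by neurons, was higher at 2.14 ± 0.12, and the ion channel Trpm5 was lower at -1.01 ± 0.13 (SE, limma adjusted p = 8.36e-05 and 0.00187). Among 9 lipid genes the apolipoprotein M gene Apom was higher at 0.29 ± 0.07, and the scavenger receptors Cd36 at -1.69 ± 0.44 and Scarb1 at -0.65 ± 0.07 were lower (SE, limma adjusted p = 0.0389, 0.0389 and 0.00072). Cd36 is also found on macrophages and endothelium. Fabp6, the ileal bile acid-binding protein, had levels of 5.45, 5.0, 5.67 and 5.15 in YFP-positive cells, against 4.6, 4.79 and 4.86 in YFP-negative cells. Its groups did not overlap, and the difference of 0.56 ± 0.17 did not pass (SE, limma adjusted p = 0.0613). The count of lower genes among the 109 was 5, 4 and 16 without YFP-negative arrays 1, 2 and 3 in turn, and 1 gene was called higher after leaving out YFP-positive array 1, 3 or 4, YFP-negative array 1 or YFP-negative array 3.

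**Figure D5:**
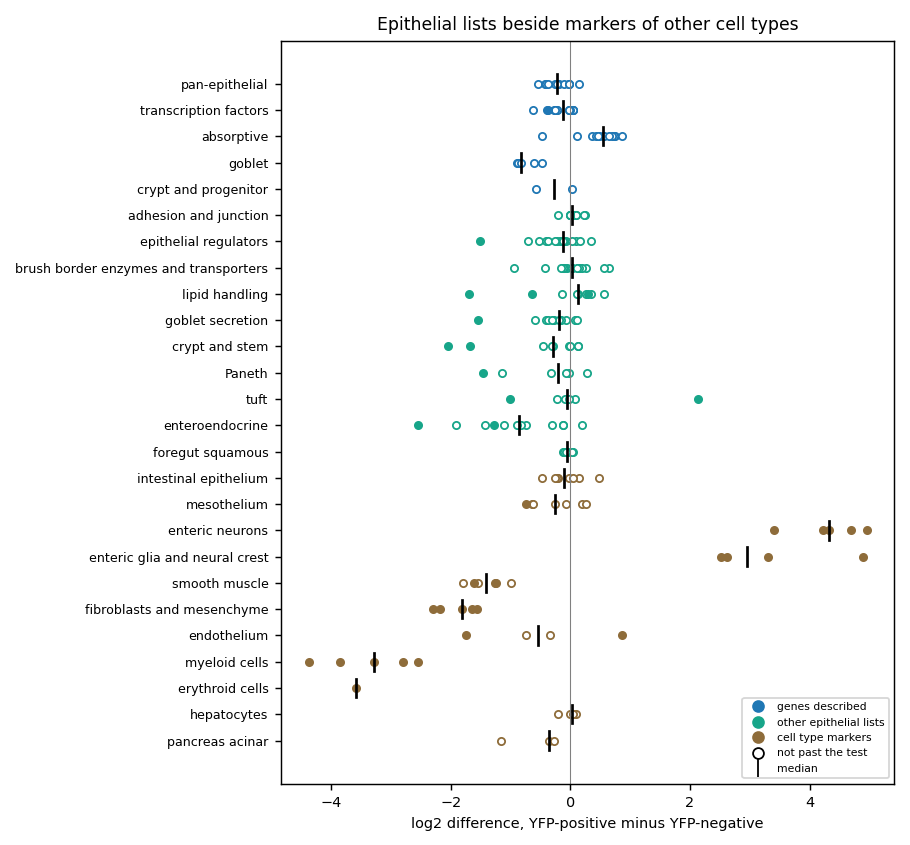
Log2 difference, YFP-positive minus YFP-negative, of each gene (points) in the epithelial lineages (blue), further epithelial lists (green) and markers of cell types (brown); filled points passed an adjusted p of 0.05 in limma and the bar is the list median. Medians of the epithelial lists lie between -0.85 and 0.54, against 4.32 for enteric neurons and -3.28 for myeloid cells.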

How the data were processed

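RNA was measured in 7 samples, 4 YFP-positive and 3 YFP-negative, grouped by the labels. Per the labels' protocols, total RNA from sorted cells was extracted with Trizol and amplified with a whole-transcriptome kit from very small amounts before hybridisation. The deposited values are log2 levels per probe set, which per the submitters' processing notes the authors produced with RMA in Affymetrix Expression Console. This method subtracts background, equalises the distributions of arrays and combines probes, and like amplification it can compress differences. Program versions, and whether arrays were normalized together, were not given in the sources used here.

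Of 35556 probe sets in the table, 21789 had a single gene symbol in the platform annotation, 1621 had several and 12146 had no entry. Each gene was represented by its brightest probe set on average over 7 arrays, for 19938 genes in all. No listed epithelial gene had several probe sets. YFP-positive and YFP-negative arrays were compared in limma 3.58.1 (lmFit, eBayes) under R 4.3.3, with group as the only term and Benjamini-Hochberg adjustment over all genes. Python 3.11.15, pandas 2.3.3, numpy 2.4.6 and matplotlib 3.10.9 were used. The fit was tested on simulated data. The epithelial genes, lists and tests were chosen with earlier results of these data known, and no list was tested as a set.

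All listed epithelial genes were accounted for: each array's value is given for every transcription factor and for the 4 largest and 2 smallest absolute differences of each lineage, and other lists give up to 4 genes with the largest absolute difference. Further genes of those lists that are named were chosen after their values were seen. The alternatives were trend and robust options, median centring, repeated quantile normalization, a filter on genes of low mean level, the mean of probe sets, array weights, limma's treat at 1.5-fold, a block for the replicate number, and leaving out single arrays. Fits without YFP-positive arrays 3 and 4, or 1 and 2, were added after seeing the data.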

Additional observations from a re-analysis of the deposited data

How the results depend on the processing

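Of the 47 epithelial genes, 30 kept the sign of their difference in all 15 alternatives, among them 12 of 13 absorptive and 5 of 5 goblet genes. Trend and robust options, the low-level filter, the mean of probe sets and treat leave these differences unchanged, so they could not change a sign. The replicate block gave the same differences as leaving out YFP-positive array 4, whose number has no YFP-negative partner. The count called higher, 0 in the reported fit, was 1 with array weights (Apoc3, limma adjusted p = 0.0462) and 0 to 1 without single arrays. The count called lower, 1 in the reported fit, was 0 with treat against a 1.5-fold change, 0 with the replicate number as a block and 0 to 1 without single arrays. Foxa1 was called in 7 of the 15 (limma adjusted p = 0.0135 to 1), and Apoc3 in 2 (0.0288 to 1). The labels do not say whether same-numbered arrays share an animal, litter or sort. Same-numbered arrays deviated from their group means with correlations of 0.008, -0.086 and 0.038 over genes. None of YFP-positive arrays 1 to 3 correlated best with the YFP-negative array of its own number. With so few arrays, these correlations cannot tell whether the numbers mark pairs. Among the 109 other epithelial genes, the count called higher, 2 in the reported fit, was 4 after median centring, 4 after repeated quantile normalization, 4 with array weights, 1 with treat, 1 with the replicate block and 1 to 2 without single arrays. The count called lower, 10 in the reported fit, was 1 with treat and 4 to 16 without single arrays. Lineage medians without single arrays ran from -0.40 to 0.04 (pan-epithelial), -0.24 to -0.02 (transcription factors), 0.35 to 0.70 (absorptive), -1.05 to -0.53 (goblet) and -0.36 to -0.18 (crypt and progenitor).

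Fits without YFP-positive arrays 3 and 4, or without 1 and 2, were chosen after seeing that the levels differed among these arrays, so the choice itself moves the values. Without arrays 3 and 4, 0 epithelial genes were called higher and 10 lower. The medians in that fit were -0.58 for pan-epithelial genes, -0.43 for transcription factors, 0.07 for absorptive and -1.47 for goblet genes. Without arrays 1 and 2, 4 were called higher and 0 lower, and the medians were 0.21 for pan-epithelial genes, 0.12 for transcription factors and -0.17 for goblet genes. For the other epithelial genes the counts were 1 higher and 17 lower without arrays 3 and 4, and 6 higher and 6 lower without arrays 1 and 2. The share of all genes called was not counted in these 2 fits or in the 15 alternatives. The counts of calls in them are therefore no result about epithelial genes. The absorptive median stayed above 0 and the goblet median below 0 in these 2 fits and in the 15 alternatives. With no detection calls in the deposited values, signal over background could not be set for single genes.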
